A study of Fragaria x ananassa with 6 samples.

Results

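The 4 transcription factors FaNAC1, FaAP2(1), FaDof and FaYabby were followed in strawberry floral buds with and without overexpression of FaPRE1, a small helix-loop-helix regulator that lacks a DNA-binding domain. They were the 4 genes, of 35117 features on the array, whose name in the files was that of a NAC, AP2, Dof or YABBY factor, and the choice used their names, with earlier results of these data already known. RNA came from floral buds of cultivated strawberry (Fragaria x ananassa), a tissue the labels give for all 6 samples. The 3 control samples came from plants transformed with the empty vector and carry the phenotype label normal. The 3 FaPRE1-OX samples came from plants transformed with pK7WG2-FaPRE1, a construct for overexpression delivered by Agrobacterium tumefaciens AGL0, and their buds are labelled as elongated. The name PRE3 stands in the titles of the FaPRE1-OX samples, but their genotype and description give FaPRE1, which was followed here. Each RNA is labelled as coming from independent buds. Neither the transgenic line nor the age of the buds is stated for a replicate, and the p-values therefore reflect the scatter of these 6 samples, part of which may be technical. The samples were hybridised in pairs on 3 two-colour arrays, called A, B and C, which hold replicates 1, 2 and 3 of both groups. FaPRE1-OX was labelled with Cy3 on arrays A and C and with Cy5 on array B.

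The proteins of these families bind DNA and switch other genes on or off. NAC factors, named after the petunia and Arabidopsis genes NAM, ATAF and CUC, include regulators of organ boundaries, secondary walls and senescence. The AP2 family takes its name from Arabidopsis APETALA2, a floral homeotic gene that specifies sepals and petals. Dof factors are plant proteins with a single zinc finger and take part in light, storage and vascular programmes. YABBY factors carry a zinc finger and an HMG-like domain and, in Arabidopsis, mark the abaxial side of leaves and floral organs. The files give no subfamily for the 4 strawberry genes, so the member of each family that a probe detects is not known here.

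The FaPRE1 probe checked the labels. The log2 signal of controls 1, 2 and 3 was 6.09, 6.64 and 6.37 and that of FaPRE1-OX 1, 2 and 3 was 8.59, 8.74 and 8.04, so that every FaPRE1-OX sample was above every control. The fitted log2 difference was 2.09 ± 0.23 (SE, n = 3 arrays), with an adjusted p of 0.0644 in limma with a dye term and 0.00815 without it. Without replicate 3 the difference was 2.30. For this probe 2 of the 3 controls were not well above background, and the difference was 5.43 when the scanner software's own processed signals were used, so its size depends on the background treatment. Which stretch of the transcript it matches is not known here. Across all 35117 features the control samples correlated with each other at 0.994 to 0.996. FaPRE1-OX 1 and 2 correlated at 0.996, whereas FaPRE1-OX 3 correlated with them at 0.971 and 0.970 and so stood apart from its group. The fitted difference of each factor is therefore also given without replicate 3. That fit has no dye term, since 2 arrays cannot carry it, and is to be read beside the 3-array fit that leaves the dye term out. The share of spots well above background ran from 57.7% (FaPRE1-OX 3) to 67.4% (control 1). Of 8 marker symbols of ripe receptacle (the fleshy part of the fruit), 6 were not well above background in any sample. The log2 of the summed signal of all 8 was 13.09 to 13.38 in controls and 12.94 to 13.27 in FaPRE1-OX. Linear signals were summed, so the brightest probes weigh most and the sum does not describe each marker. The 2 markers that were measured went opposite ways. FaPLB, a pectate lyase, had log2 ratios of 2.04, 2.40 and 1.74 on arrays A, B and C, and FaQR, a quinone oxidoreductase, had ratios of -0.63, -0.01 and -0.63. Their part in the results on the 4 factors was not tested. The floral bud label itself could not be checked, because no floral organ identity gene is named by symbol among the features used here.

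Each factor was read by 1 probe, spotted at 2 positions per array for FaNAC1, FaAP2(1) and FaYabby and at 1 position for FaDof. All of these spots were well above background in all 6 samples, and 0 were flagged or saturated, so that all 4 members passed the filter on dim probes. In control buds FaAP2(1) lay at percentile 90.4 ± 0.18 (SD, n = 3) of the signals of all features in a sample and FaYabby at 86.1 ± 1.11. FaDof lay at 62.2 ± 1.70 and FaNAC1 at 59.5 ± 1.61. The percentile ranks the signals of probes. A probe's signal also depends on its sequence, so this order is not an order of transcript amounts. The lowest FaAP2(1) percentile in a control, 90.3, was above the highest of FaYabby, 87.2, while FaDof (60.4 to 63.8) and FaNAC1 (58.3 to 61.3) overlapped. In FaPRE1-OX the mean percentiles were 87.1 ± 4.20 for FaAP2(1), 85.2 ± 2.01 for FaYabby, 56.7 ± 6.17 for FaDof and 47.2 ± 13.5 for FaNAC1. Each was lower than in the control, and each had a larger SD.

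**Figure D1:**
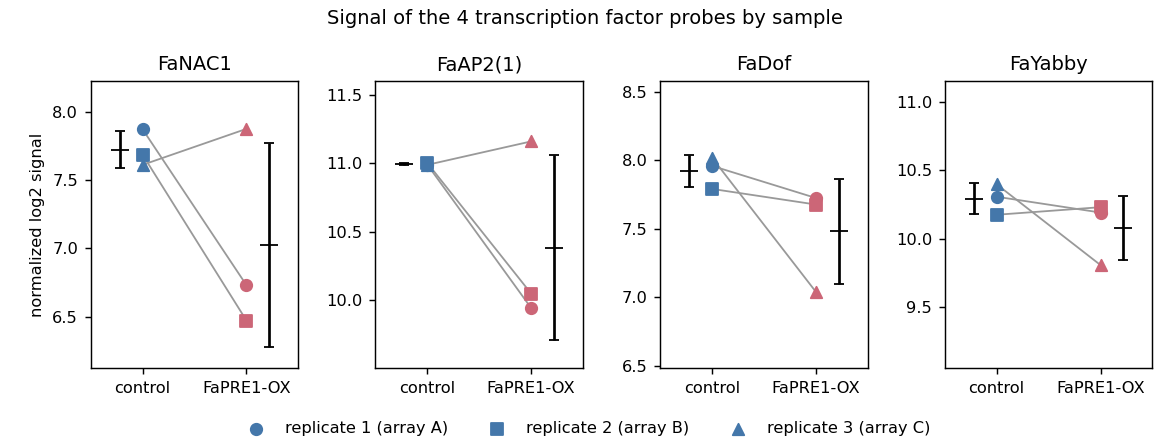
Normalized log2 signal (vertical axis) of the 4 factors in control and FaPRE1-OX samples, with grey lines joining the samples of an array and black bars showing mean ± SD (n = 3). All panels span the same number of log2 units. The third FaPRE1-OX sample (triangle) is the highest of the 6 for FaAP2(1), at 11.16, level with the highest control for FaNAC1, at 7.87, and the lowest for FaDof and FaYabby, at 7.04 and 9.81.

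For FaNAC1, FaPRE1-OX was 2.20-fold lower than the control on array A, 2.32-fold lower on array B and 1.20-fold higher on array C. Its log2 signal was 7.87, 7.68 and 7.61 in controls 1, 2 and 3 (mean 7.72 ± 0.13, SD, n = 3). It was 6.73, 6.47 and 7.87 in FaPRE1-OX 1, 2 and 3 (mean 7.03 ± 0.75). FaPRE1-OX 1 and 2 were thus below every control, and FaPRE1-OX 3 stood level with the highest control. The fitted log2 difference was -0.82 ± 0.35 (SE), with a 95% interval of -1.89 to 0.24 and an adjusted p of 0.238 in limma with the dye term. Without the dye term it was -0.70 ± 0.34 (adjusted p = 0.202), and on dropping replicate 3 as well, -1.18 (adjusted p = 6.59e-08). In tissue RNA of this kind, fewer cells that express a gene and less RNA per cell cannot be told apart.

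The FaNAC1 probe was dim, which bears on the size of its difference. In FaPRE1-OX 1 its median spot intensity was 74 and 73 over local backgrounds of 40 and 46.5, and in FaPRE1-OX 2 it was 115 and 112 over 78 and 74. The control spots stood at 2.53 to 3.93 times their background. In FaPRE1-OX 3 the spots stood at 3.66 and 3.30 times their background, within the control range. The signals as processed by the scanner software, to which no offset was added, gave log2 ratios of -2.24, -2.52 and 0.50 on arrays A, B and C and a fitted difference of -1.69, compared with -0.82 in the main fit. The sign on each array was the same with either treatment.

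FaAP2(1) had the most even control signal of the 4, at 10.99, 11.00 and 10.99 in controls 1, 2 and 3 (mean 11.00 ± 0.0073, SD, n = 3). In FaPRE1-OX 1, 2 and 3 it was 9.94, 10.05 and 11.16 (mean 10.38 ± 0.67). The first pair of FaPRE1-OX samples lay below every control and FaPRE1-OX 3 above every control. FaPRE1-OX was 2.07-fold and 1.94-fold lower than the control on arrays A and B and 1.13-fold higher on array C. The fitted log2 difference was -0.70 ± 0.31 (SE), with a 95% interval of -1.63 to 0.24 and an adjusted p of 0.251 in limma with the dye term. Without the dye term it was -0.61 ± 0.28 (adjusted p = 0.182), and without replicate 3 as well it was -1.001, with an adjusted p of 3.37e-07. Unlike FaNAC1, this probe was bright, with spots at 17.4 to 38.5 times their background over all 6 samples, and the processed signals gave similar ratios of -0.97, -0.83 and 0.19. Its direction on array C did depend on the dye normalization: after centring each array on its median instead of loess, the FaAP2(1) ratios were -1.52, -0.19 and -0.41, below the control on every array, while FaNAC1 was at -1.29, -1.01 and 0.05.

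FaDof showed the opposite arrangement, with ratios near the control on arrays A and B and its lowest ratio on array C. Its log2 signal in controls 1, 2 and 3 was 7.96, 7.79 and 8.02 (mean 7.92 ± 0.12, SD, n = 3), against 7.72, 7.68 and 7.04 in FaPRE1-OX 1, 2 and 3 (mean 7.48 ± 0.38). The groups did not overlap, as was so in this direction for 25.2% of all genes tested. The lowest control and the highest FaPRE1-OX sample lay close together. By percentile they did overlap, with 60.4 in control 2 and 60.7 in FaPRE1-OX 1. FaPRE1-OX was 1.18-fold, 1.08-fold and 1.97-fold lower than the control on arrays A, B and C. The fitted log2 difference was -0.36 ± 0.21 (SE), with a 95% interval of -0.99 to 0.27 and an adjusted p of 0.339 in limma with the dye term. Without the dye term the difference was -0.44 ± 0.20, and without replicate 3 as well it was -0.17 (adjusted p = 0.0862). FaDof rested on a single spot per array, and in FaPRE1-OX 3 that spot had a median intensity of 91.5 over a background of 51. The other samples had spots at 3.04 to 4.02 times the background, and this sample at 1.79. With the processed signals the FaDof ratios were -0.08, -0.15 and -1.75, and with median centring they were -0.47, 0.35 and -1.15, so that the sign on array B turned.

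FaYabby was the factor closest to the control. Its log2 signal in controls 1, 2 and 3 was 10.31, 10.18 and 10.40 (mean 10.29 ± 0.11, SD, n = 3), against 10.19, 10.23 and 9.81 in FaPRE1-OX 1, 2 and 3 (mean 10.08 ± 0.23). FaPRE1-OX 1 and 2 lay inside the control range and FaPRE1-OX 3 below it. The ratios were -0.12, 0.06 and -0.59 on arrays A, B and C, the last being a 1.51-fold lower signal in FaPRE1-OX. The fitted log2 difference was -0.15 ± 0.16 (SE), with a 95% interval of -0.63 to 0.33 and an adjusted p of 0.580 in limma with the dye term. Without the dye term it was -0.22 ± 0.15, and without replicate 3 as well it was -0.03 (adjusted p = 0.779). The probe was bright (11.7 to 26.4 times the background). On array C the ratio was also below the control with processed signals (-0.55) and with median centring (-1.10). On array A the sign depended on the treatment, at 0.06 with processed signals and -0.58 with median centring. On array B it stayed above 0, at 0.19 with processed signals and 0.81 with median centring.

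**Figure D2:**
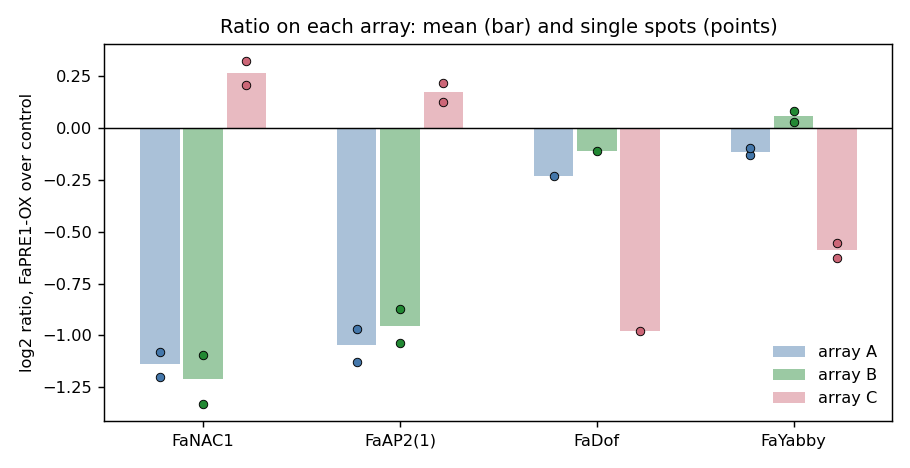
Log2 ratio of FaPRE1-OX over control (vertical axis) on arrays A, B and C, with bars for the mean over the spots of a probe and points for single spots. Duplicate spots lie close together, and the ratio of array C departs from those of arrays A and B for each factor, upward for FaNAC1 and FaAP2(1) and downward for FaDof and FaYabby.

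In limma with the dye term, 0 of the 4 factors reached an adjusted p under 0.05, and 0 had an unadjusted p under 0.05 (0.0926 for FaNAC1, 0.103 for FaAP2(1), 0.174 for FaDof and 0.409 for FaYabby). That fit, which leaves 1 residual degree of freedom, called 0 of 23382 genes tested (0%), while 28.9% of all genes had an unadjusted p under 0.05. The fit without the dye term called 22.6% of all genes and 0 of the 4 factors, with adjusted p values of 0.202, 0.182, 0.179 and 0.348 for FaNAC1, FaAP2(1), FaDof and FaYabby. Without replicate 3, again with no dye term, 59.6% of all genes were called, and among the 4 factors FaNAC1 and FaAP2(1) were. That fit rests on the first 2 arrays, so its small p values describe how closely those arrays matched. All 3 FaPRE1-OX signals were below all 3 control signals for 1 of the 4 factors (FaDof), as they were for 25.2% of all genes tested. The fitted difference was below 0 for 4 of the 4 factors, with values from -0.82 to -0.15, and for 52.2% of all genes, whose median was -0.02.

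To find which sample carried the departure of array C, the sample of replicate 3 was compared with those of replicates 1 and 2 in its own group. FaPRE1-OX 3 differed from the mean of FaPRE1-OX 1 and 2 by 1.27 for FaNAC1, 1.16 for FaAP2(1), -0.66 for FaDof and -0.40 for FaYabby on the log2 scale. Control 3 differed from the mean of controls 1 and 2 by -0.17, -0.01, 0.14 and 0.16 for the same factors. For each factor the larger shift was thus in the FaPRE1-OX sample and ran against the shift of the control. FaPRE1-OX 1 and 2 lay 0.26 apart for FaNAC1, 0.11 for FaAP2(1), 0.05 for FaDof and 0.04 for FaYabby.

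The ranks of the signals before loess and quantile normalization gave the same picture, with no ratio involved. FaNAC1 lay at percentiles 58.3 to 60.6 in controls and at 43.2, 40.8 and 62.3 in FaPRE1-OX 1, 2 and 3. FaAP2(1) lay at 90.2 to 90.7 in controls and at 84.1, 85.1 and 91.9 in FaPRE1-OX 1, 2 and 3. Both factors thus ranked below every control in FaPRE1-OX 1 and 2 and above every control in FaPRE1-OX 3. FaDof lay at 60.4 to 63.6 in controls and at 60.7, 60.0 and 47.2 in the FaPRE1-OX samples. FaYabby lay at 85.0 to 87.2 in controls and at 86.2, 86.4 and 82.8 in the FaPRE1-OX samples. Their ranks in FaPRE1-OX 1 and 2 were at or near the control range, and those in FaPRE1-OX 3 were below it.

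Against all 23382 genes tested, the 4 factors departed on array C more than most. The ratio on array C minus the mean of arrays A and B was 1.44 for FaNAC1 and 1.17 for FaAP2(1), at percentiles 97.4 and 96.0 of all genes. It was -0.81 for FaDof and -0.56 for FaYabby, at percentiles 3.07 and 7.30. With median centring in place of loess it was 1.20 for FaNAC1, 0.45 for FaAP2(1), -1.09 for FaDof and -1.22 for FaYabby. Those values lay at percentiles 98.5, 93.1, 7.47 and 5.06 of all genes under that treatment. With processed signals the departure was 2.88, 1.09, -1.64 and -0.68, at percentiles 99.0, 92.0, 2.12 and 15.8. The sign was the same in these 3 treatments for each factor. The size moved by over 1.5 times for FaNAC1 and FaDof (processed signals) and for FaAP2(1) and FaYabby (median centring). The mean of arrays A and B joins both dye orientations, whereas array C has that of array A. With median centring the ratios on arrays A and B were -1.52 and -0.19 for FaAP2(1) and -0.58 and 0.81 for FaYabby. The size of the departure can therefore include a dye difference, and the part of dye in its change was not tested. The median size of this departure, without regard to sign, was 0.25 over all genes. The SD of the log2 ratio between duplicate spots was 0.13 on array A, 0.15 on array B and 0.15 on array C. The spots of FaNAC1, FaAP2(1) and FaYabby differed from their duplicates by 0.03 to 0.23, a technical gap within an array that does not measure the scatter between samples. A ratio below 0 on arrays A and B and above 0 on array C was found for 12.3% of all genes, FaNAC1 and FaAP2(1) among them. A signal at least 2-fold lower on both A and B with a ratio above 0 on C, the pattern of FaNAC1, was found for 0.949%. A ratio below 0 on all 3 arrays, the pattern of FaDof, was found for 32.2%. These percentages describe where the factors lie and are not tests, and the cause of the departure was not tested.

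**Figure D3:**
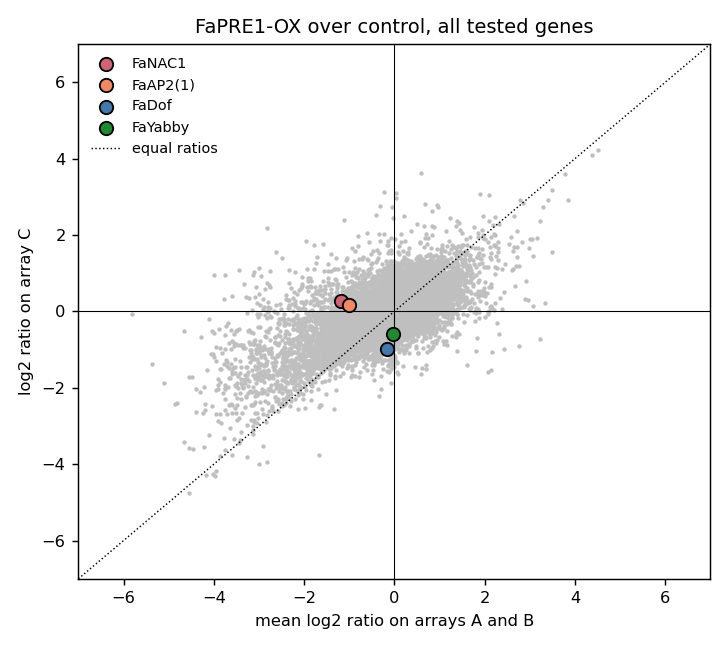
Log2 ratio of FaPRE1-OX over control on array C (vertical axis) against the mean ratio on arrays A and B (horizontal axis) for all 23382 genes tested (grey) and the 4 factors (coloured). FaNAC1 and FaAP2(1) lie above the dotted line of equal ratios, with a negative mean on A and B and a positive ratio on C, and FaDof and FaYabby lie below it.

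By their loess ratios the factors lay in pairs, FaNAC1 with FaAP2(1) and FaDof with FaYabby. The likeness of a pair of genes was measured as the root mean square distance between their ratios over the 3 arrays, among the 36 features with a gene symbol that passed the filter. FaNAC1 and FaAP2(1) were each other's nearest symbol, at a distance of 0.17 on the log2 scale, and the second nearest to either was FaIAA33, a member of the Aux/IAA repressors of auxin response, at 0.29 from FaNAC1 and 0.22 from FaAP2(1). Nearest to FaDof was FaFLS, named for flavonol synthase, at 0.21, with ratios of -0.36, -0.18 and -1.31 on arrays A, B and C, followed by FaYabby at 0.26. Nearest to FaYabby was Faimp at 0.22, with ratios of -0.07, -0.08 and -0.24, followed by FaDof. By contrast, FaNAC1 and FaAP2(1) lay 0.91 to 1.09 from FaDof and FaYabby. Many gene models without a symbol lay closer. Of all 23382 genes tested, 53 were nearer to FaNAC1 than FaAP2(1) was, and 123 were nearer to FaAP2(1) than FaNAC1 was. For FaDof 152 genes were nearer than FaFLS, and for FaYabby 1414 were nearer than Faimp. The distance between FaNAC1 and FaAP2(1) was 0.56 with median centring and 1.24 with processed signals, where FaAP2(1) lay closer to FaYabby (0.94). FaDof and FaYabby lay 0.27 apart with median centring and 0.72 apart with processed signals. With 3 ratios per gene this likeness is a description only.

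Among the 4 other regulators with a symbol, 3 were measured and Famyb10, a MYB regulator of anthocyanin synthesis, had no sample well above background. The measured ones were FabHLH1, of the basic helix-loop-helix family, FaGRAS1, of the GRAS family that includes the DELLA repressors, and FaIAA33. Fitted with the dye term 0 of the 3 passed (0% of all genes), and without it 1 fell, FabHLH1 (adjusted p = 0.0209), beside calls for 22.6% of all genes. Without replicate 3, where 59.6% of all genes were called, all 3 passed in limma, FabHLH1 at -0.94 (adjusted p = 6.52e-07), FaIAA33 at -1.01 (adjusted p = 4.82e-07) and FaGRAS1 at -0.28 (adjusted p = 0.0287). With no replicate block, FaIAA33 (adjusted p = 0.0470) and FabHLH1 (adjusted p = 0.0176) also passed in limma. That setting called 4238 of 23384 genes tested. The log2 signal of FabHLH1 in controls 1, 2 and 3 was 9.01, 8.93 and 8.93, against 8.13, 7.93 and 8.40 in the FaPRE1-OX samples of the same arrays, with no overlap. With loess its ratios were -0.88, -1.003 and -0.53, so that it kept its direction on array C where FaNAC1 and FaAP2(1) did not. With median centring FabHLH1 (-0.90) and FaAP2(1) (-0.41) were both below the control on array C, and FaNAC1 was at 0.05. The loess ratios of FaIAA33 were -0.91, -1.10 and -0.16, and its groups did not overlap either. All 3 FaPRE1-OX signals were below all 3 control signals for 25.2% of all genes tested, FabHLH1 and FaIAA33 among them. FaGRAS1 was at -0.07, -0.48 and 0.61 with loess, which on array C is the direction of FaNAC1 and FaAP2(1) under that treatment.

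**Figure D4:**
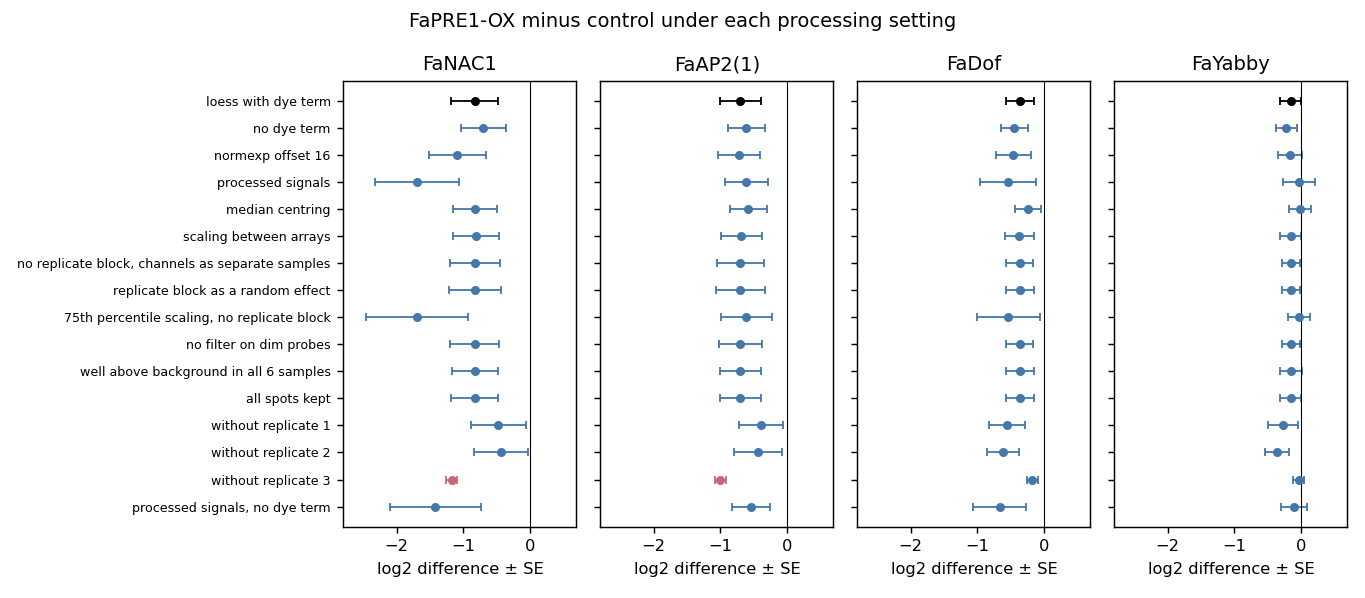
Log2 difference of FaPRE1-OX minus control (horizontal axis, ± SE) for each factor under the fit with the dye term (black) and 15 alternative settings (rows), with settings that reached an adjusted p under 0.05 in red. Every estimate lies below 0, and the red points are those of FaNAC1 and FaAP2(1) without replicate 3, a setting that called 59.6% of all genes.

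Over the 15 alternative settings the fitted difference stayed below the control for all 4 factors. It ran from -1.69 to -0.44 for FaNAC1, from -1.001 to -0.39 for FaAP2(1), from -0.66 to -0.17 for FaDof and from -0.35 to -0.02 for FaYabby. FaNAC1 and FaAP2(1) passed the threshold in 1 setting each, without replicate 3, and FaDof and FaYabby in 0. That setting called 59.6% of all genes tested. The adjusted p ran from 6.59e-08 to 0.605 for FaNAC1, from 3.37e-07 to 0.593 for FaAP2(1), from 0.0862 to 0.456 for FaDof and from 0.348 to 0.951 for FaYabby in limma. For FaPRE1 it ran from 6.43e-10 to 0.113 and for FabHLH1 from 6.52e-07 to 0.179. The smallest differences of FaNAC1 and FaAP2(1), -0.44 and -0.39, came when replicate 2 and replicate 1, respectively, were left out and array C made up the rest with a single other array.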

How the data were processed

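Total RNA of 3 control and 3 FaPRE1-OX floral bud samples was hybridised on 3 two-colour oligonucleotide arrays, a control and a FaPRE1-OX sample on each. The authors deposited scanner output (Agilent Feature Extraction 10.7 per the labels, 10.7.3.1 per the file headers), with spot, background and processed signals as linear intensity and other columns for spot flags. Of 62976 spots per array, 61657 were not controls, giving 35337 probes and 35117 features, 45 of them with a symbol. The median spot intensity ran from 92.5 to 173.5 over samples. Precision is limited by having 3 arrays.

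Local background was removed by the normexp method with an offset of 50, which shrinks ratios of dim probes, in limma 3.58.1 (R 4.3.3, statmod 1.5.0). Loess normalized the ratios of each array. Flagged spots were dropped, and the mean over spots, then over probes, gave the value of a gene. A gene was tested if well above background in at least 3 of 6 samples. The ratio of FaPRE1-OX over control was fitted with a dye term (lmFit, eBayes, two-sided, Benjamini-Hochberg over all 23382 genes, threshold 0.05). Because dyes were swapped on 1 of 3 arrays, array B weighs as much in this fit as A and C together. Dropping the dye term leaves 2 residual degrees of freedom. Levels per sample are log2 signals of each channel after loess, with average intensities made alike between arrays by quantiles.

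The replicate number marks a shared array per the labels, so the ratio holds the pairing as a block. The estimated correlation between the channels of an array was -0.055. Alternatives covered the dye term, background correction, normalization, filters, flags, the block and each replicate left out. The fits with a replicate left out have no dye term, and the pair of arrays left without replicate 2, A and C, have the same dye orientation, so that dye and construct cannot be told apart there. The 4 members, the regulator and marker symbols and the tests were chosen with earlier results of these data known. Named genes were the members, FaPRE1, the other regulators with a symbol and the 2 symbols nearest to each member. Probe sequences and gene positions were not used here, and 0 array identifiers matched the reference gene table.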

Additional observations from a re-analysis of the deposited data

How the results depend on the processing

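With the dye term limma called 0 genes (6765 at an unadjusted p under 0.05), and the number called depended on the processing. It was 5292 without the dye term, 923 with a normexp offset of 16, 1428 with processed signals, 4680 with 75th percentile scaling, 1106 with median centring, 412 with scaling between arrays and 5343 with processed signals and no dye term, the last chosen after seeing the data. With no replicate block, the channels being treated as separate samples, it was 4238, and with the replicate block as a random effect 3809. Neither changed the call of a factor. Leaving out each replicate, which also drops the dye term, gave 0 to 13943 calls, the highest without replicate 3, beside 5292 for all 3 arrays without the dye term. The share of higher against lower values, among genes with an unadjusted p under 0.05, was 43.6% higher in the fit with the dye term, 55.3% under 75th percentile scaling, 60.0% after median centring and 54.8% for processed signals and no dye term. Why the counts differ was not tested.

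Among the settings run, the calls of FaNAC1 and FaAP2(1) changed in the fit without replicate 3 and the dye term, and not in the 3-array fit that left the dye term out. With each replicate left out, their differences ran from -1.18 to -0.44 and from -1.001 to -0.39. FaNAC1 was at -1.69 with processed signals, and dim spots limit its size and that of FaDof. The difference of FaPRE1 passed the threshold at 2.09 when the dye term was dropped, when there was no replicate block and when the replicate block was a random effect, at 2.74 with an offset of 16, 5.43 with processed signals, 5.44 with 75th percentile scaling, 2.25 with median centring and 5.27 with processed signals and no dye term, and ran from 1.88 to 2.30 with each replicate left out. The filter on all 6 samples removed it. FaGRAS1, at -0.11 in the fit with the dye term, was at 0.017 without the dye term, 0.014 with median centring and 0.11 with processed signals and no dye term, and ran from -0.28 to 0.27 with each replicate left out (0.06 without replicate 1).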
